A study of Mus musculus with 12 samples.

Results

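CXC chemokines are small secreted proteins that attract leukocytes through G protein-coupled receptors, and 9 genes of this system were followed: the ligands Cxcl1, Cxcl2, Cxcl3, Cxcl5, Cxcl10, Cxcl12 and Cxcl16 and the receptors Cxcr2 and Cxcr4. The members were the rows of the deposited expression matrix whose mouse Ensembl identifier carries 1 of these symbols, 9 of 54104 genes with an Ensembl identifier. Cxcl1, Cxcl2, Cxcl3 and Cxcl5 are ligands of CXCR2, which draws neutrophils out of the bone marrow and into inflamed tissue. CXCL12 acts through CXCR4 and holds neutrophils and their precursors in the marrow. CXCL10 is induced by interferons and attracts T cells through CXCR3, and CXCL16 is a membrane-bound ligand of CXCR6.

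The series compared polymorphonuclear and monocytic myeloid-derived suppressor cells, which are immature myeloid cells that accumulate in tumor-bearing animals, between tumor and spleen. Total RNA of 12 mouse samples was sequenced as paired-end Illumina libraries, in 4 groups of 3 libraries labelled Ly6C tumor, Ly6C spleen, Ly6G tumor and Ly6G spleen. Ly6C and Ly6G are surface proteins that usually tell monocytic from polymorphonuclear cells. The labels name a label, a tissue and a number for each library and give no genotype, strain, age, tumor model, treatment or sorting gate. The labels do not say whether the 3 libraries of a group came from separate animals, so a p-value measures only the spread between these libraries.

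The marker genes of the labelled cells were far lower in the tumor libraries. All 20 genes of a pan-leukocyte list were lower in tumor than in spleen under both labels, and their summed level was 182 to 358 FPKM in Ly6C tumor against 4171 to 4792 FPKM in Ly6C spleen, and 441 to 752 FPKM in Ly6G tumor against 5063 to 5252 FPKM in Ly6G spleen. FPKM is a count of fragments scaled to gene length and library size. The Ly6g transcript was at 11.8 to 13.8 FPKM in Ly6C tumor, 131 to 209 FPKM in Ly6C spleen, 31.5 to 54.1 FPKM in Ly6G tumor and 591 to 717 FPKM in Ly6G spleen. The Ly6c2 transcript was at 6.35 to 8.16 FPKM in Ly6C tumor, 223 to 272 FPKM in Ly6C spleen, 5.31 to 7.80 FPKM in Ly6G tumor and 169.5 to 237 FPKM in Ly6G spleen. Within each tissue Ly6g was higher under the Ly6G label without overlap. The Ly6c2 ranges of the labels overlapped in both tissues, so this transcript did not separate them. Other monocyte genes differed in spleen. Of a list of 9 that holds Ly6c2, 5 were higher and none lower in Ly6C spleen than in Ly6G spleen (adjusted p under 0.05, limma). There 22.1% of all genes were higher, and the median difference in log2(FPKM + 1) was 1.61 against 0.11 over all genes. In tumor 1 of the 9 was higher and 1 lower, where 5.8% and 8.7% of all genes were. Krt8, a keratin of epithelial cells, was at 576 to 770.0 FPKM in Ly6C tumor, at most 0.159 FPKM in Ly6C spleen, 356 to 574 FPKM in Ly6G tumor and at most 0.263 FPKM in Ly6G spleen. The epithelial adhesion gene Epcam was at 0 in all 3 Ly6C tumor libraries, and 2 of the 8 epithelial genes listed reached the level needed for a test. In bulk samples, fewer cells of a type and less RNA per cell cannot be told apart. Mitochondrial transcripts took 3.08% to 7.88% of FPKM in Ly6C tumor, 1.70% to 2.52% in Ly6C spleen, 5.45% to 11.99% in Ly6G tumor and 2.50% to 2.89% in Ly6G spleen, with library 3 highest under both labels in tumor.

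Of the 9 members, 5 lie on chromosome 5, and 4 of these stand in a single cluster of ligand genes on the forward strand. In GRCm38 coordinates of GENCODE M21, Cxcl5 occupies chr5:90759360-90761624, Cxcl3 chr5:90786103-90789600, Cxcl1 chr5:90891241-90893115 and Cxcl2 chr5:90903871-90905938. The genes of the platelet ligands Ppbp and Pf4 lie between Cxcl5 and Cxcl3, and Cxcl15 lies between Cxcl3 and Cxcl1. Cxcl10 lies on the reverse strand, 1455 kb from the start of Cxcl1, at chr5:92346638-92348889. Cxcl12 lies on chromosome 6, Cxcl16 on chromosome 11, and Cxcr2 and Cxcr4 lie on chromosome 1.

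The proximal promoters of 4 members that were higher in tumor, Cxcl1, Cxcl2, Cxcl3 and Cxcl10, are shown because they hold matches to a binding motif of NF-kappaB, a factor that drives inflammatory genes. They were picked for holding a match, and other CXC ligands that were higher in tumor hold none. RefSeq promoters in GRCm38.p6, from 250 bases before to 50 bases after each start, were matched by symbol for 7 members; Cxcl5 and Cxcl16 were not matched. The windows below run 5′ to 3′ on the strand of the gene, at chr5:90891135-90891194 for Cxcl1, chr5:90903769-90903828 for Cxcl2, chr5:90785991-90786050 for Cxcl3, each on the forward strand, and chr5:92348970-92349109 on the reverse strand for Cxcl10. Capitals mark the motif matches.
Cxcl1: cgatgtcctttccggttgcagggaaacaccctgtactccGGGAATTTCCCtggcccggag
Cxcl2: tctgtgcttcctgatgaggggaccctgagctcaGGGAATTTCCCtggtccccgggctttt
Cxcl3: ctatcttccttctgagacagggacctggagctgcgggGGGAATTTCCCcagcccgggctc
Cxcl10: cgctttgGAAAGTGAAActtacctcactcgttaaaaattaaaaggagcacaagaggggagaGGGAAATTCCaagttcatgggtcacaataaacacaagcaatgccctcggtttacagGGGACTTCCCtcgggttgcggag
Cxcl1, Cxcl2 and Cxcl3 carried the same 11 letters, GGGAATTTCCC, beginning 71, 97 and 73 bases before the start. The motif was read on both strands, and in these 3 genes the matches of both strands overlap and were counted as 1 site. Cxcl10 carried GGGAAATTCC and GGGACTTCCC, beginning 159 and 103 bases before the start, and GAAAGTGAAA at 213 bases before the start, a match to the interferon-stimulated response element, GAAA, any 2 bases and GAAA again, read on both strands. The kappaB motif was found in 4.51% of 32851 promoters of the same length, and the interferon element in 3.44%. Neither was found in the windows of Cxcl12, Cxcr2 or Cxcr4, nor in those of the ligand genes Pf4 and Ppbp, which were also higher in tumor under both labels. A match describes the letters in this window and not a bound site.

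The levels of the 9 members fell into separate patterns, given here per library in the order of replicates 1, 2 and 3. Cxcl1, Cxcl2, Cxcl3 and Cxcl10 were higher in tumor than in spleen, Cxcr2 and Cxcr4 were lower, and Cxcl5, Cxcl12 and Cxcl16 stayed under 2 FPKM in every library. Genes that reached 1 FPKM in 3 or more libraries were tested, which 7 members did and Cxcl5 and Cxcl12 did not. Differences below are in log2(FPKM + 1), which understates the change of a low gene, and p-values are those of limma after Benjamini-Hochberg adjustment over 13610 genes, with a threshold of 0.05.

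**Figure D1:**
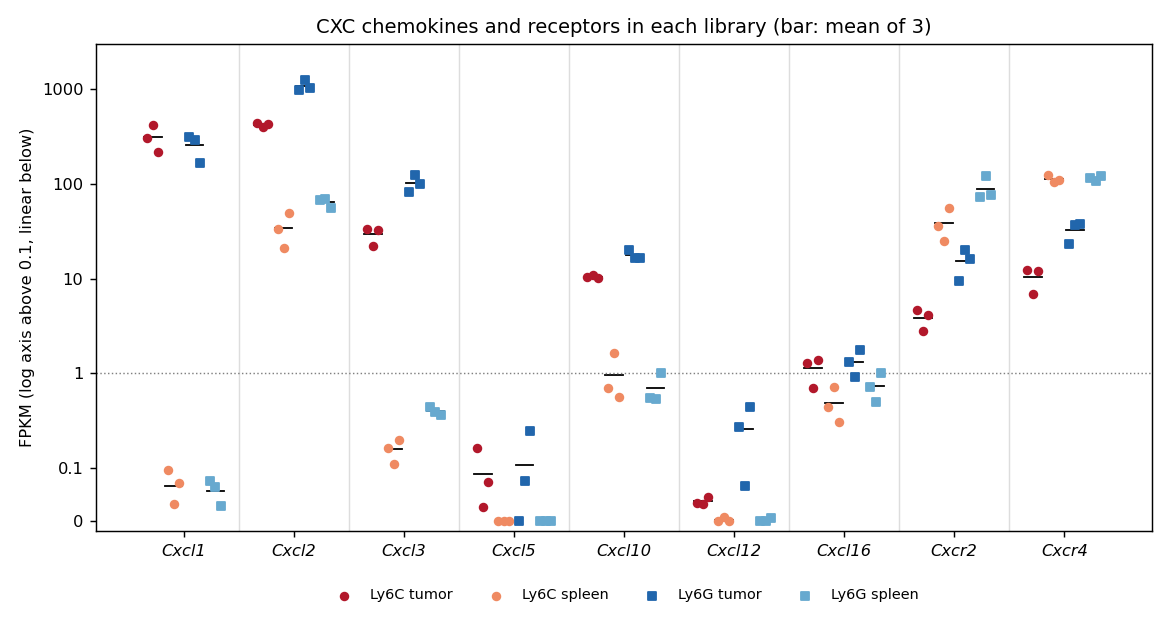
Level of each member in FPKM (vertical axis, logarithmic above 0.1 and linear below) in each of the 12 libraries, with points for libraries and bars for the mean of 3. Cxcl1 and Cxcl3 stand at 21.9 FPKM or more in all 6 tumor libraries and at 0.440 FPKM or less in all 6 spleen libraries, while Cxcr2 and Cxcr4 are lower in tumor than in spleen under both labels; the dotted line marks 1 FPKM.

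Between Ly6C tumor and Ly6C spleen all 7 tested members passed, 5 higher and 2 lower in tumor, in a comparison where 76.7% of the 13610 genes passed, 46.2% higher and 30.5% lower. Between Ly6G tumor and Ly6G spleen 6 of the 7 passed, 4 higher and 2 lower, where 76.2% of genes passed, 51.5% higher and 24.7% lower. Passing was thus the rule for genes at large, and the members' count stands near that background. The median difference of the 7 was 2.58 for Ly6C and 3.46 for Ly6G, beside 0.27 and 0.43 over all genes tested. This median pools ligands that rose with receptors that fell. The members were chosen with earlier results of these data known, so it is a description only. After the tumor libraries of highest mitochondrial share, Ly6C tumor 3 and Ly6G tumor 3, were left out, 6 members passed under each label. Of the 13610 genes, 9950 passed there in Ly6C and 9933 in Ly6G.

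**Figure D2:**
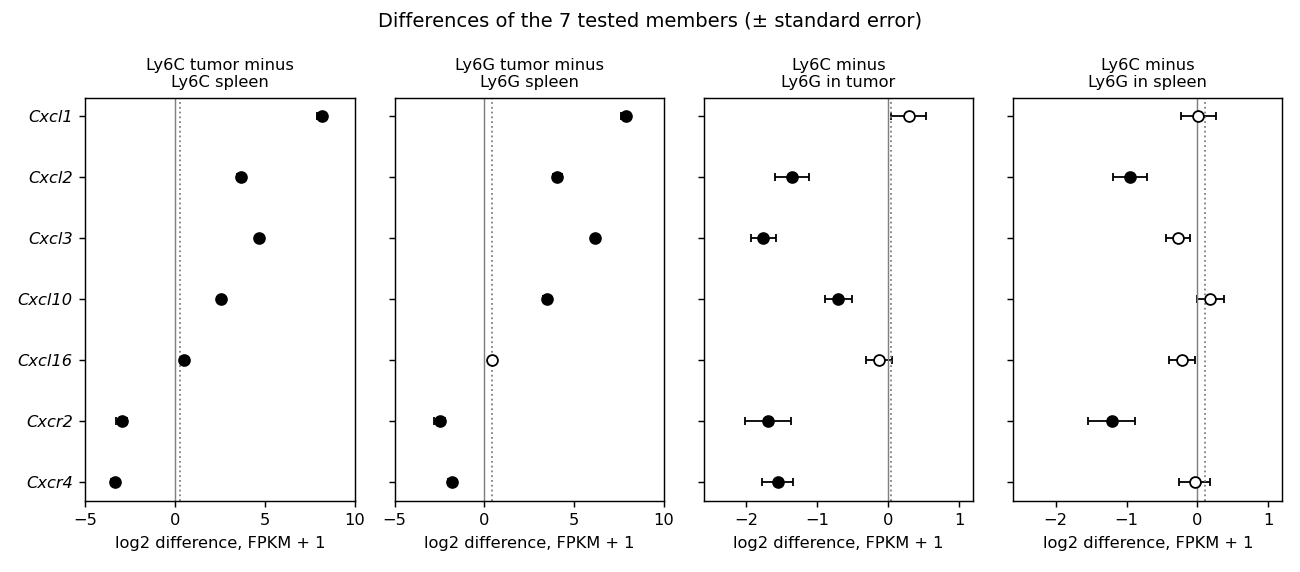
Differences of the 7 tested members in log2(FPKM + 1) (horizontal axes, with standard errors as bars) in 4 comparisons, with filled points for an adjusted p under 0.05 and a dotted line at the median of all genes. Cxcl1 reaches 8.16 in Ly6C and 7.88 in Ly6G between tissues, and the label differences within tumor lie between -1.76 and 0.29.

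Cxcl1, a CXCR2 ligand and strong neutrophil attractant, was at 308, 418 and 217 FPKM in Ly6C tumor against 0.0968, 0.0321 and 0.0712 FPKM in Ly6C spleen. It was at 311, 292 and 167 FPKM in Ly6G tumor against 0.0762, 0.0635 and 0.0282 FPKM in Ly6G spleen. Every tumor library was thus at 167 FPKM or more and every spleen library at 0.0968 FPKM or less, with no overlap. If the smallest step of the values is 1 fragment, then 1 fragment on Cxcl1 is worth 0.0252 to 0.0321 FPKM. The spleen levels would then stand for a few fragments. The difference was 8.16 ± 0.25 (SE) for Ly6C (adjusted p = 1.12e-10, limma) and 7.88 ± 0.25 for Ly6G (adjusted p = 1.64e-10, limma). By size among genes higher in tumor, Cxcl1 ranked 4 of 13610 for Ly6C and 5 for Ly6G. By mean level it ranked 187 of 54104 genes in Ly6C tumor and 18038 in Ly6C spleen, and 190 in Ly6G tumor and 18672 in Ly6G spleen.

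Cxcl2, also a CXCR2 ligand and a product of activated neutrophils and macrophages, differed from Cxcl1 in being well expressed in spleen. It was at 438, 403 and 430 FPKM in Ly6C tumor against 33.2, 21.2 and 48.8 FPKM in Ly6C spleen. It was at 975, 1255 and 1041 FPKM in Ly6G tumor against 68.5, 68.8 and 55.6 FPKM in Ly6G spleen. The 4 groups did not overlap with each other, and Cxcl2 was the most abundant member in both tumor groups, ranking 132 of 54104 genes by mean level in Ly6C tumor and 41 in Ly6G tumor. It rose by 3.66 ± 0.24 in Ly6C (adjusted p = 5.90e-08, limma) and by 4.06 ± 0.24 in Ly6G (adjusted p = 2.97e-08, limma), where the ratio of mean FPKM was 12.3 and 17.0.

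Cxcl3, the third of the clustered CXCR2 ligands, was at 33.7, 21.9 and 33.0 FPKM in Ly6C tumor against 0.163, 0.112 and 0.200 FPKM in Ly6C spleen. It was at 82.2, 124 and 99.9 FPKM in Ly6G tumor against 0.440, 0.392 and 0.368 FPKM in Ly6G spleen. No library of tumor came near a library of spleen, and the Ly6G groups lay above the Ly6C groups in both tissues without overlap. It rose by 4.70 ± 0.17 in Ly6C (adjusted p = 6.54e-10, limma) and by 6.18 ± 0.17 in Ly6G (adjusted p = 7.77e-11, limma). The transcripts of Cxcl2 and Cxcl3 share sequence: 5.84% of the distinct 50-base windows of Cxcl2 and 3.51% of those of Cxcl3 were found in the other gene, so part of the reads could be split between them, while no other pair of members shared a window.

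Cxcl5, the fourth CXCR2 ligand, did not follow its neighbours. It was at 0.164, 0.0262 and 0.0742 FPKM in Ly6C tumor, at 0, 0.07504 and 0.248 FPKM in Ly6G tumor, and at 0 in all 6 spleen libraries. If the smallest step of the values is 1 fragment, then 1 fragment on Cxcl5 is worth 0.0254 to 0.0323 FPKM, so these levels stand for a handful of fragments. Without the filter on low values the difference was 0.12 for Ly6C (adjusted p = 0.208, limma) and 0.14 for Ly6G (adjusted p = 0.131, limma).

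The other ligands of the cluster were uneven in the same way. Pf4, which encodes platelet factor 4, was at 22.8, 11.6 and 28.2 FPKM in Ly6C tumor against 0.108, 0.251 and 0.140 FPKM in Ly6C spleen, and at 19.6, 4.87 and 31.5 FPKM in Ly6G tumor against 1.43, 1.14 and 1.77 FPKM in Ly6G spleen. Tumor and spleen did not overlap under either label, and Pf4 rose by 4.14 ± 0.50 in Ly6C (adjusted p = 1.14e-05, limma) and by 2.70 ± 0.50 in Ly6G (adjusted p = 3.91e-04, limma). Ppbp, which encodes the platelet basic protein, rose by 2.53 ± 0.33 in Ly6C (adjusted p = 2.24e-05, limma) and by 1.01 ± 0.33 in Ly6G (adjusted p = 0.0151, limma). The Ly6G groups of Ppbp overlapped, with 4.08, 1.46 and 5.61 FPKM in Ly6G tumor and 0.826, 1.02 and 1.74 FPKM in Ly6G spleen. Of a list of 6 other megakaryocyte and platelet genes, all of them low, 3 were tested. In Ly6C tumor none passed as higher and 2 as lower, where 46.2% of all genes passed as higher and 30.5% as lower. In Ly6G tumor 1 passed as higher and 2 as lower, where these shares were 51.5% and 24.7%. Itga2b of this list did not overlap in Ly6C, at 0.521 to 0.708 FPKM in tumor against 0.358 to 0.439 FPKM in spleen. The summed level was 1.75 to 2.80 FPKM in Ly6C tumor against 6.04 to 11.6 FPKM in Ly6C spleen. In Ly6G it was 2.06 to 2.99 FPKM in tumor against 5.84 to 7.92 FPKM in spleen. The part of platelets in Pf4 and Ppbp was not tested. Cxcl15, a lung chemokine of the mouse, stayed at or under 0.120 FPKM in every library.

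**Figure D3:**
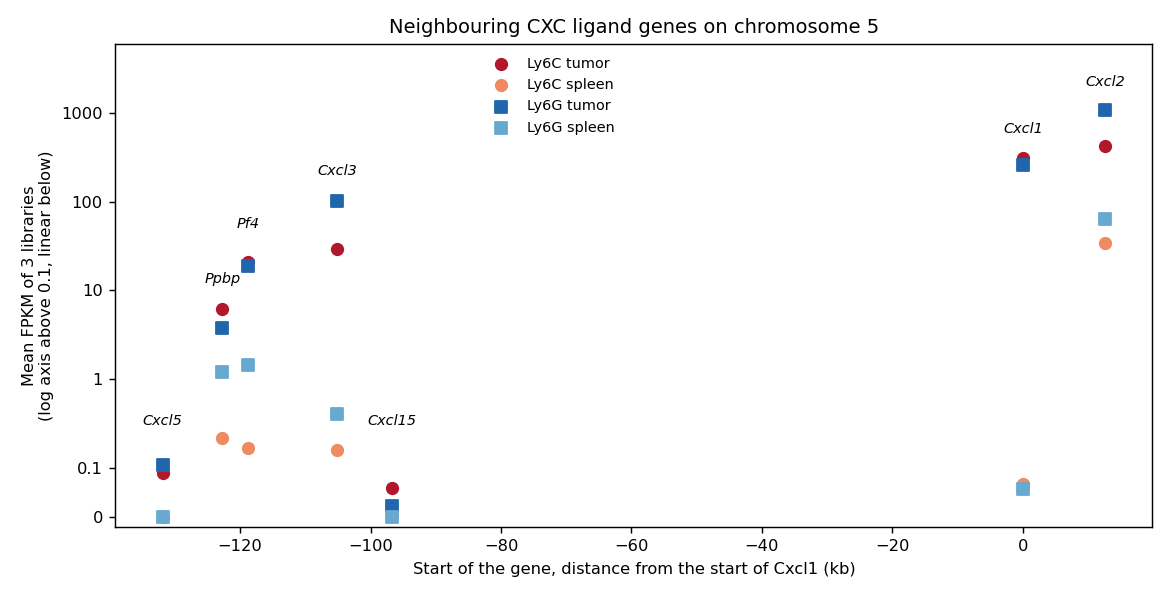
Mean FPKM of 3 libraries (vertical axis, logarithmic above 0.1 and linear below) of 7 neighbouring CXC ligand genes on chromosome 5, against the distance of each gene's start from that of Cxcl1 in kb. Ppbp, Pf4, Cxcl3, Cxcl1 and Cxcl2 are higher in tumor under both labels, and Cxcl5 and Cxcl15 stay near 0 among them.

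Cxcl10, the interferon-induced ligand of CXCR3, was at 10.3, 10.8 and 10.2 FPKM in Ly6C tumor against 0.699, 1.66 and 0.560 FPKM in Ly6C spleen. It was at 20.3, 16.5 and 16.4 FPKM in Ly6G tumor against 0.557, 0.537 and 1.01 FPKM in Ly6G spleen. Tumor libraries were at 10.2 FPKM or more and spleen libraries at 1.66 FPKM or less, without overlap. It rose by 2.58 ± 0.19 in Ly6C (adjusted p = 1.58e-07, limma) and by 3.46 ± 0.19 in Ly6G (adjusted p = 1.67e-08, limma). The other interferon-induced ligands of CXCR3 were low, with Cxcl9 at most 0.557 FPKM and Cxcl11 at most 0.280 FPKM in any library, and neither was tested.

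The other member ligands, Cxcl16 and Cxcl12, were low. Cxcl16 was at 1.30, 0.702 and 1.39 FPKM in Ly6C tumor against 0.445, 0.723 and 0.311 FPKM in Ly6C spleen, and at 1.32, 0.908 and 1.77 FPKM in Ly6G tumor against 0.713, 0.499 and 1.02 FPKM in Ly6G spleen. The groups overlapped under both labels. The difference was 0.51 ± 0.18 in Ly6C (adjusted p = 0.0232, limma), a call that was lost with quantile normalization (0.090, adjusted p = 0.651), with median-of-ratios scaling (0.37, adjusted p = 0.0737), with no expression filter (adjusted p = 0.0547) and without any of Ly6C tumor 1, Ly6C tumor 3, Ly6C spleen 1 or Ly6C spleen 3 (0.42 to 0.49, adjusted p = 0.0579 to 0.0855), and 0.41 ± 0.18 in Ly6G (adjusted p = 0.0552, limma). Cxcl16 overlaps the oppositely transcribed Zmynd15 by 552 bases, and Cxcl10 lies inside an annotated span of Art3; as the strand setting of the counting is not given in the sources used here, their reads cannot be told apart, though Zmynd15 was at most 0.756 FPKM and Art3 at most 0.242 FPKM. Cxcl12, the CXCR4 ligand, was at 0.0342, 0.0326 and 0.0447 FPKM in Ly6C tumor, at 0.271, 0.0661 and 0.438 FPKM in Ly6G tumor, and at most 0.00737 FPKM in spleen. Without the filter its difference was 0.05 in Ly6C (adjusted p = 0.697, limma) and 0.32 in Ly6G (adjusted p = 0.00849, limma).

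Among all 15 CXC ligands of the matrix, the summed FPKM was 729 to 869.7 in Ly6C tumor against 24.5 to 50.3 in Ly6C spleen, and 1367 to 1695 in Ly6G tumor against 62.0 to 72.9 in Ly6G spleen. The make-up of that sum differed between tissues, with Cxcl2 taking 46.3% to 59.0% in Ly6C tumor against 86.4% to 97.2% in Ly6C spleen, and 68.9% to 76.2% in Ly6G tumor against 89.6% to 94.5% in Ly6G spleen. Cxcl1 took 29.8% to 48.0% in Ly6C tumor and 12.3% to 22.0% in Ly6G tumor, and at most 0.277% in any spleen library. These shares are descriptions and were not tested.

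**Figure D4:**
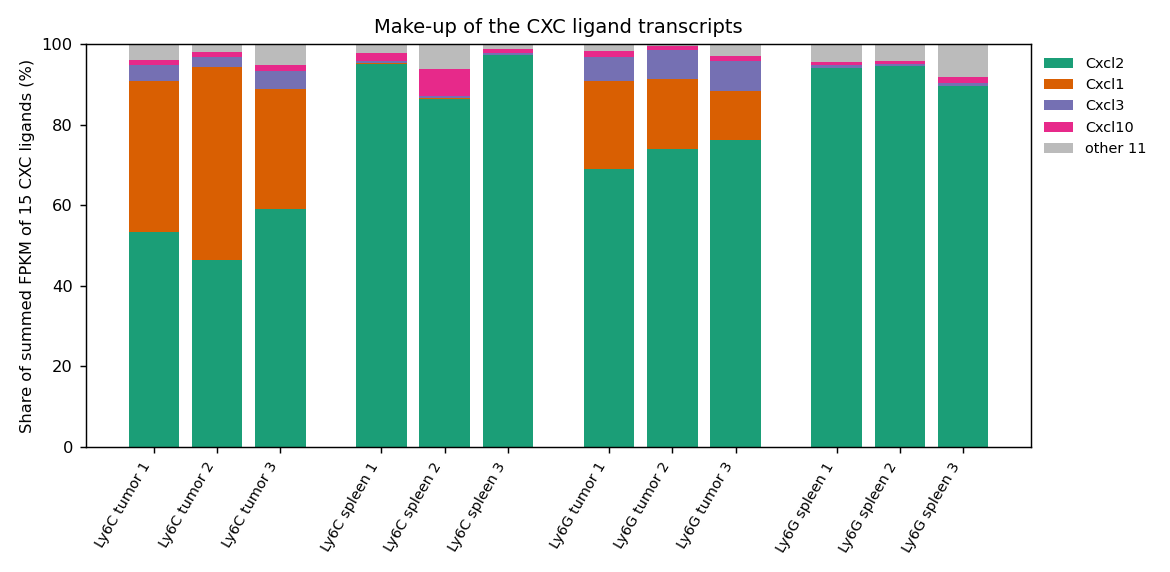
Share of the summed FPKM of 15 CXC ligands (vertical axis, in percent) taken by Cxcl2, Cxcl1, Cxcl3, Cxcl10 and the other 11 in each library. Cxcl2 takes 86.4% or more in the spleen libraries, and Cxcl1 appears as a second large part in tumor, larger in Ly6C tumor than in Ly6G tumor.

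Cxcr2, the receptor of the clustered ligands and a marker of mature neutrophils, was at 4.66, 2.80 and 4.10 FPKM in Ly6C tumor against 36.3, 24.7 and 56.3 FPKM in Ly6C spleen. It was at 9.44, 20.2 and 16.0 FPKM in Ly6G tumor against 72.7, 119.9 and 75.7 FPKM in Ly6G spleen. Every tumor library lay below every spleen library, and every Ly6C library lay below every Ly6G library of its tissue. Cxcr2 fell by 2.99 ± 0.33 in Ly6C (adjusted p = 4.76e-06, limma) and fell by 2.50 ± 0.33 in Ly6G (adjusted p = 2.29e-05, limma).

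Cxcr4, the CXCL12 receptor, which is also raised on aged neutrophils, was at 12.3, 6.90 and 11.98 FPKM in Ly6C tumor against 123, 104 and 109.8 FPKM in Ly6C spleen. It was at 23.1, 36.5 and 37.5 FPKM in Ly6G tumor against 115, 108 and 123 FPKM in Ly6G spleen. The spleen groups of both labels overlapped, and in tumor Ly6C lay below Ly6G without overlap. Cxcr4 fell by 3.35 ± 0.22 in Ly6C (adjusted p = 5.80e-08, limma) and fell by 1.83 ± 0.22 in Ly6G (adjusted p = 1.10e-05, limma). The ratio of Cxcr4 to Cxcr2 was 2.63, 2.46 and 2.92 in Ly6C tumor against 3.40, 4.19 and 1.95 in Ly6C spleen, and 2.45, 1.81 and 2.35 in Ly6G tumor against 1.58, 0.899 and 1.62 in Ly6G spleen. Its log2 changed by 0.27 between tumor and spleen over both labels, within the spread between libraries (exact permutation p = 0.335, two-sided, tissue labels permuted within label). The change was -0.19 for Ly6C (exact permutation p = 0.6) and 0.73 for Ly6G (exact permutation p = 0.1, the smallest that 3 against 3 allows).

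Both receptors fell together with the genes of leukocytes at large. The pan-leukocyte list had a geometric mean of 11.6, 6.23 and 11.9 FPKM in Ly6C tumor against 134, 132 and 139.9 FPKM in Ly6C spleen, and 15.2, 24.4 and 26.5 FPKM in Ly6G tumor against 136, 143 and 129 FPKM in Ly6G spleen. Divided by it, Cxcr2 was 0.401, 0.450 and 0.345 in Ly6C tumor against 0.271, 0.187 and 0.402 in Ly6C spleen, and 0.620, 0.826 and 0.603 in Ly6G tumor against 0.534, 0.839 and 0.585 in Ly6G spleen. On that scale tumor and spleen overlapped for Cxcr2 under both labels. Cxcr4 was 1.05, 1.11 and 1.01 in Ly6C tumor against 0.922, 0.785 and 0.785 in Ly6C spleen, and 1.52, 1.49 and 1.42 in Ly6G tumor against 0.841, 0.754 and 0.947 in Ly6G spleen, with tumor above spleen without overlap.

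Refitting with each library scaled to those 20 genes, which were themselves lower in tumor, raised genes at large in tumor, and the median tissue difference over all genes moved to 3.19 in Ly6C and 2.23 in Ly6G. The values on that scale are therefore read against that median, and a change of sign on it is a property of the scaling. Cxcr2 was at 0.50 in Ly6C and 0.076 in Ly6G, and Cxcr4 at 0.34 in Ly6C and 0.79 in Ly6G, all below the median over all genes, as they were before the scaling. Cxcl1 was at 10.43 in Ly6C and 8.97 in Ly6G, Cxcl2 at 7.40 and 6.68, Cxcl3 at 7.01 and 7.52, and Cxcl10 at 5.24 and 4.92, all above that median. A gene already higher in tumor could not turn under this scaling. All genes of a library were divided by the same factor, so a gene and the median move nearly together. Standing above or below that median was thus largely fixed before the refit and is no separate result.

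**Figure D5:**
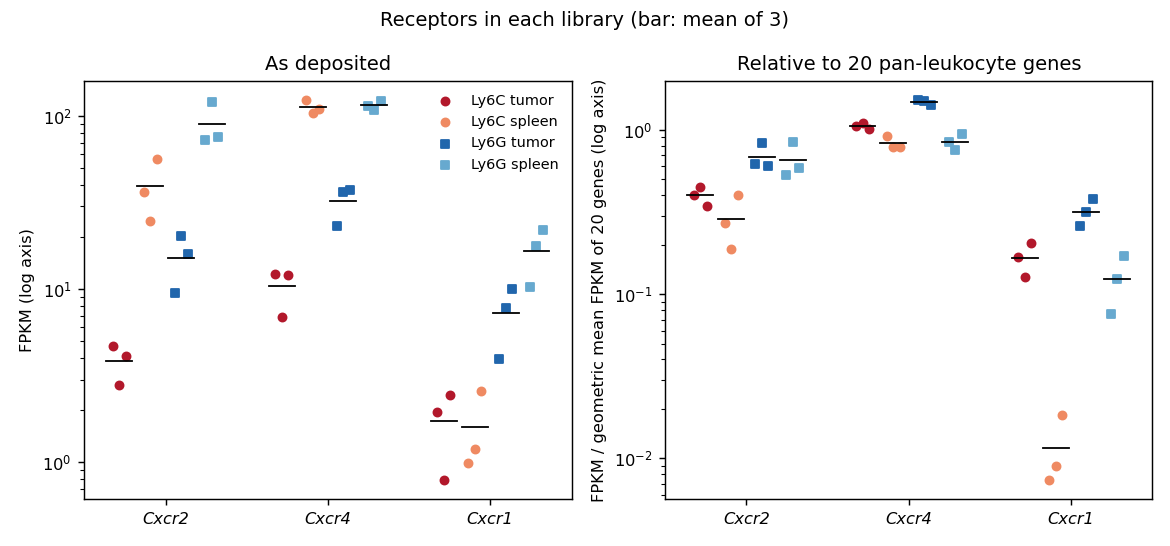
Cxcr2, Cxcr4 and Cxcr1 in each library as deposited (left, FPKM, logarithmic axis) and divided by the geometric mean FPKM of 20 pan-leukocyte genes (right, logarithmic axis), with bars for the mean of 3. As deposited, tumor lies below spleen for Cxcr2 and Cxcr4, and on the relative scale Cxcr4 lies above spleen in tumor and Cxcr2 overlaps.

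Cxcr1, the second neutrophil receptor for CXC ligands, was at 1.95, 0.790 and 2.44 FPKM in Ly6C tumor against 0.990, 1.19 and 2.58 FPKM in Ly6C spleen, overlapping, with a difference of 0.07 ± 0.37 (adjusted p = 0.866, limma). In Ly6G it fell by 1.12 ± 0.37 (adjusted p = 0.0150, limma), to 3.95, 7.76 and 9.98 FPKM in Ly6G tumor against 10.2, 17.7 and 22.0 FPKM in Ly6G spleen. Scaled to the pan-leukocyte genes its difference in Ly6G was 1.26, below the median of 2.23 over all genes on that scale. The atypical receptor gene Ackr3, whose product scavenges CXCL12, rose by 4.05 ± 0.24 in Ly6C and by 3.28 ± 0.24 in Ly6G (adjusted p = 2.32e-08 and 1.51e-07, limma), at 15.4 to 20.1 FPKM in Ly6C tumor, at most 0.115 FPKM in Ly6C spleen, 12.8 to 17.4 FPKM in Ly6G tumor and 0.116 to 1.44 FPKM in Ly6G spleen. The lymphocyte receptors Cxcr3 and Cxcr5 fell under both labels, beside a fall of all 4 tested T cell genes and all 6 B cell genes. Their differences were -0.82 and -1.01 for Cxcr3 and -1.25 and -2.36 for Cxcr5 in Ly6C and Ly6G. Cxcr6, the CXCL16 receptor, stayed at or under 0.454 FPKM and Ackr1 at or under 0.453 FPKM. Cxcr6 overlaps the oppositely transcribed Fyco1, at 1.32 to 3.11 FPKM, by 5286 bases. Cxcr5 overlaps the oppositely transcribed Bcl9l, at 3.14 to 14.0 FPKM, by 110 bases. With the strand setting not given, reads of these overlaps cannot be told apart either.

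The remaining CXC ligands were at or near 0. Cxcl13, Cxcl17 and Cxcl15 did not exceed 0.236, 0.142 and 0.120 FPKM, and Cxcl14 reached 1.32 FPKM in 1 library, Ly6G tumor 3. Of the 8 other CXC ligands 2 were tested, and of the 6 other receptors 4 were tested.

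Within a tissue the labels were compared next. In tumor 5 of the 7 tested members were lower in Ly6C than in Ly6G and none was higher, where 14.5% of genes passed, 5.8% higher and 8.7% lower. In spleen 2 of the 7, Cxcl2 and Cxcr2, were lower in Ly6C and none was higher, where 30.6% of genes passed, 22.1% higher and 8.59% lower. The median difference of the 7 was -1.35 in tumor and -0.22 in spleen, beside 0.04 and 0.11 over all genes, which likewise only describes the chosen members. Without the 2 libraries of highest mitochondrial share, the tumor count fell to 2, Cxcl3 and Cxcr4, with the other 3 members keeping their sign (Cxcl2 at -1.40, adjusted p = 0.0650; Cxcr2 at -1.68, adjusted p = 0.0925; Cxcl10 at -0.74, adjusted p = 0.171; limma), while the count over all genes fell to 260.

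For the ligands in tumor, Cxcl3 was lower in Ly6C, with a difference of -1.76 ± 0.17 (adjusted p = 6.79e-04, limma) that ranked 51 of 13610 among genes lower in Ly6C. The difference was -1.35 ± 0.24 for Cxcl2 (adjusted p = 0.00582, limma) and -0.70 ± 0.19 for Cxcl10 (adjusted p = 0.0327, limma). The Cxcl10 call was lost without any of the 6 tumor libraries (-0.76 to -0.61, adjusted p = 0.0623 to 0.0974). Cxcl1 did not pass, at 0.29 ± 0.25 (adjusted p = 0.451, limma), and its groups overlapped. The ratio of Cxcl2 to Cxcl1 was 1.42, 0.964 and 1.98 in Ly6C tumor against 3.14, 4.30 and 6.22 in Ly6G tumor, without overlap, a log2 difference of -1.65 (exact permutation p = 0.1, two-sided, the smallest that 3 against 3 allows); this ratio was chosen after its values were seen.

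For the receptors in tumor, Cxcr2 differed by -1.70 ± 0.33 (adjusted p = 0.00850, limma) and Cxcr4 by -1.56 ± 0.22 (adjusted p = 0.00218, limma). The pan-leukocyte genes differed alongside, with 16 of 20 lower in Ly6C tumor and a median of -1.09. Scaled to them, Cxcl3 (-0.62, adjusted p = 0.0465) and Cxcr2 (-0.74, adjusted p = 0.0331) remained past the limma threshold. On that scale Cxcl2 (-0.18, adjusted p = 0.606), Cxcr4 (-0.47, adjusted p = 0.0987) and Cxcl10, whose sign turned (0.40, adjusted p = 0.285), did not pass, while Cxcl1 (1.46, adjusted p = 0.00307) and Cxcl16 (0.71, adjusted p = 0.0156) were higher in Ly6C. The scaling moved the median over all genes in tumor to 1.10, and 10393 of the 13610 genes tested passed there. Passing was thus the rule for genes at large on this scale, where 4 of the 7 members passed. Of the 7 only Cxcl1 lay above that median, and Cxcl16 at 0.71 lay below it. The signs of the members are those of this scale.

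In spleen Cxcl2 was lower in Ly6C, with a difference of -0.95 ± 0.24 (adjusted p = 0.0110, limma), and Cxcr2 with -1.21 ± 0.33 (adjusted p = 0.0158, limma). Scaled to the pan-leukocyte genes neither passed, with -0.90 for Cxcl2 (adjusted p = 0.198, limma) and -1.16 for Cxcr2 (adjusted p = 0.0507, limma), where the median over all genes was 0.068. Nor did they pass in a fit of the 2 spleen groups alone (adjusted p = 0.075 for Cxcl2 and 0.0590 for Cxcr2, limma), where Cxcl3 did (-0.27, adjusted p = 0.0155, limma). The Cxcr2 call was lost without Ly6C spleen 2 (-0.93, adjusted p = 0.0615) and without Ly6G spleen 2 (-0.98, adjusted p = 0.0615). Cxcr4 did not pass in spleen, at -0.04 ± 0.22 (adjusted p = 0.953, limma). Cxcr1 was lower in Ly6C spleen by a wider margin than either, with a difference of -2.76 ± 0.37 (adjusted p = 3.64e-04, limma), and the neutrophil genes summed to 66426 to 104296 FPKM in Ly6C spleen against 128223 to 163098 FPKM in Ly6G spleen. S100a9 and S100a8 made up most of that sum, with means of 39641 and 23830 FPKM in Ly6C spleen against 77001 and 44725 FPKM in Ly6G spleen. Of the 12 neutrophil genes 5 passed as lower in Ly6C spleen and none as higher, where 8.59% of all genes passed as lower. The part of the neutrophil share in these receptor differences was not tested.

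The tissue effect itself differed between the labels for 3 of the 7 tested members, Cxcl3, Cxcl10 and Cxcr4, all with a lower value in Ly6C, where 21.8% of genes passed, 6.02% higher and 15.8% lower. The difference of the tissue effects, Ly6C minus Ly6G, was -1.52 ± 0.31 for Cxcr4 (adjusted p = 0.00620, limma), -1.49 ± 0.25 for Cxcl3 (adjusted p = 0.00238, limma) and -0.89 ± 0.27 for Cxcl10 (adjusted p = 0.0353, limma), a call lost without any of the 6 tumor libraries, Ly6G spleen 1 or Ly6G spleen 2 (-0.94 to -0.79, adjusted p = 0.0522 to 0.0812). For Cxcr4 the label difference lay in tumor and not detectably in spleen. For Cxcl3 the size depended on the pseudocount, with -0.83 (adjusted p = 0.0691, limma) at a pseudocount of 0.1, and the ratio of mean FPKM between tissues was 186 in Ly6C and 255 in Ly6G. Relative to the pan-leukocyte genes the difference was -0.45 for Cxcr4 (adjusted p = 0.306, limma) and -0.52 for Cxcl3 (adjusted p = 0.270, limma), so neither call held, and that of Cxcl10 turned to 0.31 (adjusted p = 0.595, limma), on a scale where the median over all genes was 0.95. Cxcl1 and Cxcl2 did not pass, at 0.28 and -0.40, and on the pan-leukocyte scale Cxcl1 passed at 1.46 (adjusted p = 0.0498, limma).

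Single tumor libraries stood lowest of their group for some members and highest for others. Among the Ly6C tumor libraries, library 2 had the lowest pan-leukocyte geometric mean. It also had the lowest Cxcr2, Cxcr4, Cxcr1, Cxcl2, Cxcl3, Cxcl16 and Pf4, and the highest Cxcl1, Cxcl10, Krt8 and Krt18. Among the Ly6G tumor libraries, library 1 had the lowest pan-leukocyte geometric mean. It also had the lowest Cxcr2, Cxcr4, Cxcr1, Cxcl2 and Cxcl3, and the highest Cxcl1, Cxcl10, Krt8 and Krt18. Pf4 and Cxcl16 were lowest in library 2 of that group. Library 3 had the lowest Cxcl1, Krt8 and Krt18 under both labels. With 3 libraries a group these are values and no test was made.

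By the root mean square difference of centred log2(FPKM + 1) over the 12 libraries, the genes most like each member were found. Cxcl1 was closest to Ltbp3, Krt18 and Rhox5 (0.23 to 0.47, over a range of 8.67 for Cxcl1 itself). Ltbp3, the closest, had mean levels of 269 FPKM in Ly6C tumor, 0.151 in Ly6C spleen, 284 in Ly6G tumor and 0.0939 in Ly6G spleen. Krt18, a keratin, was at 207 ± 37.9 FPKM in Ly6C tumor, 0.105 ± 0.090 in Ly6C spleen, 147 ± 51.4 in Ly6G tumor and 0.0546 ± 0.0473 in Ly6G spleen (SD, n = 3 each). Rhox5 had mean levels of 576 FPKM in Ly6C tumor, 0 in Ly6C spleen, 374 in Ly6G tumor and 0.218 in Ly6G spleen. Cxcl2 was closest to F3, Gm8696 and Gadd45b (0.50 to 0.53), Cxcl3 to Kirrel, Ltbp4 and Col4a2 (0.64 each) and Cxcl10 to Tgif1, Dagla and Tnfsf9 (0.12 to 0.18). Cxcl16 was closest to Acp2, Kifc2 and Il15ra (0.16 each), Cxcr2 to Slfn1, Mrgpra2b and Gda (0.25 to 0.31) and Cxcr4 to Rhog, Tmem38b and Tcn2 (0.20 to 0.21). All of these values share the same 12 libraries and their contrast of tissues, and the likeness is a description with no test.

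Of 15 signalling genes downstream of CXC receptors none rose and 15 fell in Ly6C, where 30.5% of all genes passed as lower, with a median of -2.82. In Ly6G 1 rose and 13 fell, where 24.7% of all genes passed as lower, with a median of -2.26. The 20 pan-leukocyte genes, all of which fell, had lower medians still, of -3.69 in Ly6C and -2.63 in Ly6G, and the part of that fall in the signalling genes was not tested. The lowest was Rac2, a GTPase of neutrophil migration, in Ly6C (-4.96 ± 0.39), at 18.1 ± 8.71 FPKM in Ly6C tumor against 553 ± 111 FPKM in Ly6C spleen, and Rgs18, a regulator of G protein signalling, in Ly6G (-4.20 ± 0.21), at 0.791 ± 0.368 FPKM in Ly6G tumor against 32.0 ± 8.13 FPKM in Ly6G spleen (SD, n = 3 each). The gene that rose was Arrb1, an arrestin (0.52 ± 0.18 in Ly6G, adjusted p = 0.0200, limma). Rac2, Vav1 and Dock2 also stand in the pan-leukocyte list.

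Of 14 genes of the NF-kappaB response and of mRNA decay 9 rose and 3 fell in Ly6C, with a median of 0.64, where 46.2% of all genes passed as higher with a median over all genes of 0.27. In Ly6G 11 rose and 1 fell, with a median of 1.30, where 51.5% of all genes passed as higher with a median of 0.43. These counts are a description of the list, and it was not tested as a group. Nfkbia, which encodes the inhibitor of NF-kappaB, was at 1514 ± 314 FPKM in Ly6C tumor against 92.5 ± 15.5 FPKM in Ly6C spleen, and rose by 4.01 ± 0.22. Tnfaip3, which encodes the feedback inhibitor A20, was at 148 ± 36.7 FPKM in Ly6G tumor against 3.80 ± 1.88 FPKM in Ly6G spleen, and rose by 4.99 ± 0.27. Zfp36, whose product hastens the decay of chemokine mRNAs, fell by 1.39 ± 0.24 in Ly6C, and Birc3 fell by 0.61 ± 0.12 in Ly6G. The summed level of the list was 1738 to 2428 FPKM in Ly6C tumor against 716 to 807 FPKM in Ly6C spleen, and 2217 to 3146 FPKM in Ly6G tumor against 702 to 1003 FPKM in Ly6G spleen.

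Of 15 interferon response genes 3 rose and 4 fell in Ly6C, with a median of -0.13, and 4 rose and 5 fell in Ly6G, with a median of 0.23, beside the same shares and medians over all genes. Irf1, a transcription factor, rose in Ly6C by 2.06 ± 0.35, Ifit2 rose in Ly6G by 1.07 ± 0.11, and Cmpk2 fell in both, with differences of -2.19 ± 0.15 in Ly6C and -1.36 ± 0.15 in Ly6G.

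Of 8 proteases that trim or shed chemokines 1 rose and 7 fell under each label, where 30.5% of all genes fell in Ly6C and 24.7% in Ly6G. Adam17, a sheddase, rose by 1.25 ± 0.18 in Ly6C and by 1.60 ± 0.18 in Ly6G, and the neutrophil elastase gene Elane fell by 5.15 ± 0.31 in Ly6C and fell by 4.02 ± 0.31 in Ly6G. Of 9 genes of neutrophil release and ageing none rose and 7 fell in Ly6C, while 1 rose and 6 fell in Ly6G. The gene that rose was Icam1 (1.95 ± 0.31 in Ly6G, at 25.0 ± 0.302 FPKM in Ly6G tumor against 5.98 ± 2.39 FPKM in Ly6G spleen; SD, n = 3 each).

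Other cell type markers are given by list. In Ly6C 46.2% of all genes passed as higher in tumor and 30.5% as lower, and in Ly6G 51.5% and 24.7%. Of 12 neutrophil genes none rose and 11 fell under each label, with summed levels of 1453 to 2753 FPKM in Ly6C tumor against 66426 to 104296 FPKM in Ly6C spleen, and of 4524 to 8844 FPKM in Ly6G tumor against 128223 to 163098 FPKM in Ly6G spleen. Of 9 monocyte genes 7 fell in Ly6C, and 2 rose and 5 fell in Ly6G, with sums of 66.5 to 115 FPKM in Ly6C tumor, 445 to 851 FPKM in Ly6C spleen, 66.3 to 165 FPKM in Ly6G tumor and 316 to 364 FPKM in Ly6G spleen. Of 9 macrophage genes 3 fell in Ly6C and 6 in Ly6G, with sums of 128 to 247 FPKM in Ly6C tumor, 168 to 376 FPKM in Ly6C spleen, 99.2 to 314 FPKM in Ly6G tumor and 285 to 665 FPKM in Ly6G spleen. The macrophage sums overlapped between tissues under both labels, and the macrophage count in Ly6C was near the share over all genes. Of 8 tested fibroblast genes 5 rose in Ly6C and 7 in Ly6G, with sums of 193 to 365 FPKM in Ly6C tumor against 1.89 to 2.36 FPKM in Ly6C spleen, where Dcn, Pdgfra and Lum were at 0, and of 137 to 329 FPKM in Ly6G tumor against 4.14 to 6.40 FPKM in Ly6G spleen. The 2 tested epithelial genes, Krt8 and Krt18, rose under both labels, and the epithelial sum was 753 to 1020 FPKM in Ly6C tumor against 0.347 to 0.557 FPKM in Ly6C spleen and 446 to 754 FPKM in Ly6G tumor against 0.917 to 1.23 FPKM in Ly6G spleen. Endothelial sums were 1.12 to 2.41 FPKM in Ly6C tumor, 3.26 to 3.95 FPKM in Ly6C spleen, 2.68 to 16.5 FPKM in Ly6G tumor and 4.16 to 6.24 FPKM in Ly6G spleen. The part of these cell types in the chemokine levels was not tested.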

How the data were processed

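Total RNA of 12 mouse samples, isolated with a column kit and sequenced in pairs on an Illumina instrument per the labels' protocols, gave 1 deposited matrix. The authors aligned reads with HISAT2 2.0.5 to GRCm38 and counted them with featureCounts 1.5.0-p3, per the submitters' processing notes, and the deposited values are FPKM per gene. FPKM carry no read counts: low values did not fall on whole steps, so the depth is unknown, no count test was run and no counting interval is given. Library sums of FPKM ran from 329275 to 444645. Of 54674 entries, 570 unnamed loci, with 0.463% to 1.04% of FPKM, were left out.

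Groups came from the sample titles. Genes reaching 1 FPKM in 3 or more libraries (13610) were fitted with limma 3.58.1 in R 4.3.3, as 1 model of 4 groups on log2(FPKM + 1) with a mean-dependent prior and Benjamini-Hochberg adjustment. The fit was tested on simulated data with known changes. Ratios of genes were compared by exact permutation; planned tissue tests of the ratios of Cxcl2 and of Cxcl5 to Cxcl1 were not run, as a gene was under 1 FPKM in spleen. Named genes were all members, the other CXC ligands and receptors, the highest and lowest passing gene of each list, and the 3 genes most like each member. Promoter motifs were searched in RefSeq sequences. The members and lists were chosen with earlier results of these data known. Alternatives were other pseudocounts, filters, scalings, fits of 2 groups, a replicate block and leaving out libraries; leaving out both libraries of highest mitochondrial share and the ratios of Cxcl2 to Cxcl1 and of Cxcl3 to Cxcl2 in tumor were added after seeing the data. Figures were drawn with matplotlib 3.10.9.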

Additional observations from a re-analysis of the deposited data

Results flagged for a closer look

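The tissue effect differed between the labels for 4 CXC genes, by the interaction term of limma with Benjamini-Hochberg adjustment over all genes tested. They were 3 of the 7 tested members and 1 of the 2 other CXC ligands tested, where 21.8% of all genes passed. None of the 4 other receptors tested passed. The difference of the effects, Ly6C minus Ly6G, was -1.52 for Cxcr4 (adjusted p = 0.00620), -1.49 for Cxcl3 (adjusted p = 0.00238) and -0.89 for Cxcl10 (adjusted p = 0.0353). As given above, none of these calls held relative to the pan-leukocyte genes. That of Cxcl3 was also lost at a pseudocount of 0.1, and that of Cxcl10 when any 1 tumor library was left out. For the platelet ligand gene Ppbp it was 1.52 (adjusted p = 0.0389), from an effect of 2.53 in Ly6C and of 1.01 in Ly6G; leaving out 1 library at a time gave 1.10 to 1.82 (adjusted p = 0.0203 to 0.0908), with the call lost in 8 of 12. No outlier test was run, as each group has 3 libraries.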

How the results depend on the processing

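Among the members tested, 387 of the values obtained by leaving out 1 library kept direction and call, 20 lost and 3 gained the call and 10 changed sign; under the other settings these numbers were 331, 23, 6 and 13. Scaled to the pan-leukocyte genes, which moves the median over all genes to 3.19 in Ly6C and 2.23 in Ly6G, the tissue difference became 0.50 for Cxcr2, 0.34 for Cxcr4, 0.063 for Cxcr3 and 1.02 for Cxcr5 in Ly6C, and 0.076 for Cxcr2, 0.79 for Cxcr4 and 1.26 for Cxcr1 in Ly6G. On that scale the label difference in tumor became 0.40 for Cxcl10, 0.71 for Cxcl16, 0.040 for Cxcr3 and 0.50 for Cxcr5, and the difference of the tissue effects 0.72 for Cxcl2, 0.31 for Cxcl10 and 0.42 for Cxcr2. There 0 members and 247 genes passed between labels in spleen, 10393 genes in tumor, and 1 member and 4571 genes for the difference of effects. Cxcr1 in Ly6C between tissues was -0.12 with median-of-ratios factors, -0.28 with quantile normalization and -0.12 without the 2 libraries of highest mitochondrial share. Cxcl16 in Ly6G was -0.17 with quantile normalization, and Cxcr4 between labels in spleen was 0.29 at equal library sums and 0.015 with quantile normalization. The difference of the tissue effects was -0.10 for Cxcl16 at equal library sums and -0.12 for Cxcr3 at a pseudocount of 0.1. Equal sums gave 4792 genes for that difference, and a pseudocount of 0.1 gave 1 member. A filter at 5 FPKM, which tests fewer genes, gave 6694 genes in Ly6C and 6648 in Ly6G between tissues. With the 2 spleen groups alone, 1 member and 2586 genes passed. Without the 2 libraries of highest mitochondrial share, which leaves fewer samples, 2 members and 260 genes passed between labels in tumor and 1417 genes for the difference of effects. Apart from the smaller filters and sample numbers, the cause was not tested.

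Leaving out 1 library at a time gave 1 to 2 members and 3317 to 4150 genes between labels in spleen. Between labels in tumor it gave 746 to 2618 genes. The count was 1117, 763 and 750.0 without Ly6C tumor 1, 2 and 3. Without Ly6G tumor 2 and 3 it was 1018 and 746. These counts were under the 1974 of all libraries by over 1.5 times. In Ly6C between tissues Cxcr1 ranged from -0.12 to 0.35. In spleen Cxcl1 ranged from -0.0058 to 0.038, Cxcl10 from -0.053 to 0.33 and Cxcr4 from -0.10 to 0.020. In tumor Cxcl16 ranged from -0.26 to 0.026, Pf4 from -0.33 to 0.90 and Cxcr5 from -0.54 to 0.14. The difference of the tissue effects ranged from -0.0034 to 0.52 for Cxcl1, from -0.043 to 0.25 for Cxcl16 and from -0.0039 to 0.30 for Cxcr3.

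The deviations of same-numbered libraries from their group means had correlations from -0.36 to 0.28, and not every library correlated best with its own number. With groups of 3 these values cannot decide whether same-numbered libraries came from the same animal. With the replicate block 7 members passed in Ly6C and 6 in Ly6G between tissues, 2 in spleen, 4 in tumor and 2 for the difference of effects; genes passing numbered 10402, 10366, 3941, 1619 and 2729. The block gave an exact permutation p of 0.375 for the ratio of Cxcr4 to Cxcr2. Groups of 3 and values without read counts limit what low genes such as Cxcl5 and Cxcl12 can show.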
